A study of Mus musculus with 17 samples.

Results

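The data described here are the binding sites of RUNX1 and CHD7 in untreated control cells of a mouse blood progenitor line, sorted by whether a site was called for RUNX1 alone, for CHD7 alone or for both. The cells were 416B, a mouse myeloid progenitor line. They carried a plasmid with the tetracycline silencer tTS, the transactivator rtTA and blasticidin resistance under an Ef1alpha promoter. The control cells, whose construct label is Control-ATG, also carried a tetracycline-responsive plasmid that lacks the Cbfb-Myh11 (CM) fusion. Stable integration was helped by a transposase, and each culture was grown from 1 sorted mCherry-negative cell, so a line stands for a selected clone. The Control -Dox cells received no doxycycline. Chromatin was crosslinked with 1% formaldehyde, sonicated and precipitated with Abcam antibodies to Runx1 or Chd7, with 2 libraries for each antibody. A site was kept when the peaks of both replicates of an antibody overlapped by at least 1 bp, and RUNX1 and CHD7 sites that overlapped by at least 1 bp were joined as shared. This gave 6802 RUNX1-only sites, 4604 shared sites and 5697 CHD7-only sites, 17103 in all, of 90323 regions with a peak in any of the 16 libraries with a peak list. The labels name 17 samples, and the IgG sample was not analysed here. The other 12 libraries, from Control +Dox, CM -Dox and CM +Dox cells (doxycycline at 1 µg/ml for 24 h), served only as libraries that the classes did not use. Cells with the CM construct carried the fusion cDNA joined to mCherry behind the tetracycline-responsive element, and CM +Dox cells were the ones induced to make it.

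RUNX1 is the DNA-binding subunit of core binding factor. It pairs with CBFB, reads a short motif built around TGTGGT or TGCGGT, and is required for the emergence and the differentiation of blood cells. CHD7 is an ATP-dependent chromatin remodeller of the chromodomain helicase family. It binds no fixed sequence motif of its own, its chromodomains recognise methylated histone H3 at active genes, and loss of one copy in humans causes CHARGE syndrome. In embryonic stem and neural crest cells CHD7 is known to sit at active enhancers and at some promoters.

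Several properties of the peak lists bear on every result. The library labelled Control -Dox RUNX1 replicate 1 has peak names with a +Dox tag, against its label. The class counts, the shared and gene-start shares, rank, width, clustering, genes with a site and later calls were recomputed with RUNX1 replicate 2 as the only RUNX1 list. The same was done, after the data were seen, for the top 100 sites, the rank bins of sharing and place, the runs, the RUNX motif, the X chromosome, the gene lists and class stability in Control +Dox. Other values were not recomputed without it. The lists ended at different p-value thresholds: 1e-09 and 1e-07 for RUNX1 replicates 1 and 2, and 0.01 for both CHD7 libraries. Column 5 of each list, the −log10 of the peak's p-value, was therefore used only to rank peaks within a list, as a percentile from 0 for the lowest score to 100 for the highest. Ties were common, since 86.3% and 86.7% of RUNX1 peaks and 96.6% and 96.0% of CHD7 peaks had a score that another peak of the list also had. The RUNX1 lists held 14010 and 13820 peaks on chromosomes 1 to 19, X and Y, and the CHD7 lists 17857 and 21486. Read depth is unknown, and peak numbers are not read as amounts of binding.

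Promoters of both single-factor classes and of the shared class are shown as examples of the DNA under the sites. For each class these are the 250 bases before the RefSeq gene start (mm10, the GRCm38.p6 assembly), 5′ to 3′ on the strand of the gene. They are among the promoters of highest rank that overlap a site of the class and no other annotated gene, and RUNX1-only and shared examples were also required to hold a RUNX motif. Capitals mark TGTGGT or TGCGGT on either strand, so that ACCACA and ACCGCA are the same motifs read from the other strand. The RUNX1-only examples are the promoters of Runx3, another RUNX family gene, of Rbx1, a subunit of cullin-RING ubiquitin ligases, and of Spp1, which encodes osteopontin.
Runx3 (plus strand, chr4:135120395-135120644): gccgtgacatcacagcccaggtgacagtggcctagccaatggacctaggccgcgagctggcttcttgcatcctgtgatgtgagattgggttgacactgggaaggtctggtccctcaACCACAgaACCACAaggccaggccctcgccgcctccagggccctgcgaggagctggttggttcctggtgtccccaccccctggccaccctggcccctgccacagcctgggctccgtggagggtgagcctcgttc
Rbx1 (plus strand, chr15:81466066-81466315): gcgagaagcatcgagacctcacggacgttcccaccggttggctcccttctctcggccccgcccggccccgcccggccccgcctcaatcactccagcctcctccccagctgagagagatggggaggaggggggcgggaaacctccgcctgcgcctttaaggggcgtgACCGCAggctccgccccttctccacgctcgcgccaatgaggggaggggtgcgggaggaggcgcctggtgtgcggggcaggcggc
Spp1 (plus strand, chr5:104434861-104435110): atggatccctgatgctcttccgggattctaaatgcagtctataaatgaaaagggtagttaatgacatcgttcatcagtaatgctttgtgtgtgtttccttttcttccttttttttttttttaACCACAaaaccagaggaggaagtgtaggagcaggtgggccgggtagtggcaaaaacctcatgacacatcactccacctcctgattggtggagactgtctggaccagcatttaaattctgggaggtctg
The shared examples are the promoters of Eif3g, a translation initiation factor subunit, of Ncbp3, a nuclear cap-binding protein, and of Clec4e, a C-type lectin receptor of myeloid cells.
Eif3g (minus strand, chr9:20898591-20898840): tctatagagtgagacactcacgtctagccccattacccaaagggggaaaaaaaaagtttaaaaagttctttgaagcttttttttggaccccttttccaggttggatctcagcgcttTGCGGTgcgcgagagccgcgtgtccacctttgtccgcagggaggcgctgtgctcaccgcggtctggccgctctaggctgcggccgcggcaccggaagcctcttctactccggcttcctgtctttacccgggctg
Ncbp3 (plus strand, chr11:73047617-73047866): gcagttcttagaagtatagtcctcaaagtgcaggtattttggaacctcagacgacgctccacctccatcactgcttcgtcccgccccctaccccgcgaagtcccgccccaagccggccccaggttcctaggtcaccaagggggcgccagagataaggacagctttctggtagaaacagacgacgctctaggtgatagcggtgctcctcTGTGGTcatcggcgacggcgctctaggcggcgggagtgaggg
Clec4e (minus strand, chr6:123289872-123290121): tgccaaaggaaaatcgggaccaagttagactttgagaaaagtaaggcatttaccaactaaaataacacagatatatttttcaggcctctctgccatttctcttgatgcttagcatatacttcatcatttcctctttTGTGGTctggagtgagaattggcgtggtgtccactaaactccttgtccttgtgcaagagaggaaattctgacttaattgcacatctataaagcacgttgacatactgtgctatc
The CHD7-only examples, chosen by rank with no motif asked for, are the promoters of Ddx18, an RNA helicase, of Psmd1, a proteasome subunit, and of Tomm22, a mitochondrial import receptor. None of these 3 windows holds the letters searched for.
Ddx18 (minus strand, chr1:121567981-121568230): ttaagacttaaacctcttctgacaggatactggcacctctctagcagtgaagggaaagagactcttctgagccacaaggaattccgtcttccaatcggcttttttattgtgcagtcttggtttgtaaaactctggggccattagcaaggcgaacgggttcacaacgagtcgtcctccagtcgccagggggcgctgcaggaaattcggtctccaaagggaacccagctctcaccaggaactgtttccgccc
Psmd1 (plus strand, chr1:86064369-86064618): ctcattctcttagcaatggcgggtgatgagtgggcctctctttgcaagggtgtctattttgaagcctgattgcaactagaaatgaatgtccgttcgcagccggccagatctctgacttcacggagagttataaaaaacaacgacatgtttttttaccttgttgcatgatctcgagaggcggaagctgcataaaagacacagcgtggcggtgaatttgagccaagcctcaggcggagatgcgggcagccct
Tomm22 (plus strand, chr15:79670618-79670867): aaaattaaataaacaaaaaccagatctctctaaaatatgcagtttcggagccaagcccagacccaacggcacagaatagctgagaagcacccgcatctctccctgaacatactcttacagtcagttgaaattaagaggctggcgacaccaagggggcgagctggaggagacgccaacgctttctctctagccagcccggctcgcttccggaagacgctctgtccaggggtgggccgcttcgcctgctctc
The Runx3 window held 2 matches side by side. It lay under a RUNX1-only site at percentile 92.6 and 85.5 of the RUNX1 lists, with no CHD7 peak in either replicate. The Rbx1 site stood at 97.2 and 94.9, and CHD7 replicate 2 had a peak there at 62.4.

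Most reproducible sites of either factor were not shared with the other. CHD7 was called at 4706 of 11508 reproducible RUNX1 sites, 40.9% (Wilson 95% interval 39.998 to 41.8%). RUNX1 was called at 4634 of 10331 reproducible CHD7 sites, 44.9% (43.9 to 45.8%). These intervals cover counting error only. Reproducibility differed between the antibodies. In the RUNX1 lists, 82.4% and 83.6% of peaks lay in a site of both replicates, against 60.1% and 49.4% in the CHD7 lists. Peaks found in 1 replicate ranked low in all 4 lists, with median percentiles of 17.7 and 22.2 for RUNX1 and 34.8 and 36.7 for CHD7, against 58.2, 57.5, 61.3 and 67.5 for peaks found in both.

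"RUNX1-only" therefore did not mean free of CHD7 peaks. Of the 6802 RUNX1-only sites, 4228 (62.2%) had no CHD7 peak in either library. CHD7 replicate 2 alone had a peak at 2017 of them (29.7%), and replicate 1 alone at 516 (7.59%). CHD7-only sites less often had a peak of the other factor: 4654 of 5697 (81.7%) had no RUNX1 peak in either library, 497 had one in replicate 1 alone and 538 in replicate 2 alone. Those last 2 sets differed in place, since 61.2% of the former and 19.3% of the latter lay within 1 kb of a gene start. The RUNX1 lists ended at stricter thresholds and held 2463 and 2260 peaks of 1 replicate, against 7118 and 10871 in the CHD7 lists. Weak RUNX1 peaks were thus not listed, and the part of this in the contrast was not tested. Only 29 of the 4706 shared RUNX1 sites overlapped their CHD7 site by 50 bp or less, the median overlap being 372 bp, and 17 RUNX1-only sites lay within 50 bp of a CHD7 site. Without RUNX1 replicate 1, the shared share of RUNX1 sites was 38.3%. With CHD7 replicate 2 as the only CHD7 list it was 58.4%. When only peaks with a score of 9 or more were kept in all 4 lists, 853 CHD7 sites remained beside 11344 RUNX1 sites, and 3.93% of RUNX1 sites and 51.3% of CHD7 sites were shared. That last setting was chosen after the data were seen.

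All 3 classes were spread over gene starts, gene bodies and intergenic DNA, and CHD7-only sites lay at gene starts least often. Places were judged for sites whose nearest protein-coding gene boundary belonged to a gene with a start in the RefSeq tables. Of these, 1654 of 5458 RUNX1-only sites (30.3%, Wilson 95% interval 29.1 to 31.5%) lay within 1 kb of a gene start. The share was 33.4% (31.9 to 35.0%) of 3753 shared sites and 24.2% (23.0 to 25.5%) of 4640 CHD7-only sites. Gene bodies held 37.2%, 32.7% and 39.7% of the 3 classes in the same order. Sites over 100 kb from any coding gene made up 4.05% of RUNX1-only, 6.39% of shared and 5.37% of CHD7-only sites. Away from gene starts, the median distance to the nearest start was 22.5 kb for RUNX1-only, 27.0 kb for shared and 19.99 kb for CHD7-only sites. The order of the gene-start shares depended on the threshold. With only the upper part of each list (scores at or above its median), it became 20.5% for RUNX1-only, 21.9% for shared and 36.9% for CHD7-only sites. Without RUNX1 replicate 2, the RUNX1-only share was 37.3% and the shared share 36.2%.

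**Figure D1:**
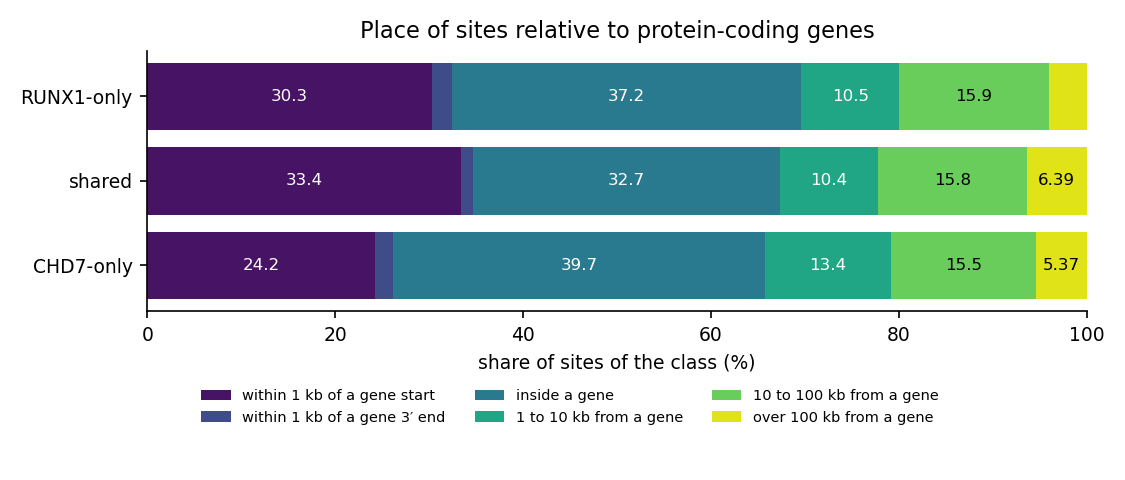
Share of sites (horizontal axis, percent of sites with a known place) in 6 places relative to protein-coding genes, for the RUNX1-only, shared and CHD7-only sites of the Control -Dox cells. The gene-start part is 30.3%, 33.4% and 24.2%, and the gene-body part is widest in CHD7-only sites at 39.7%.

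At gene starts, the sites of the 2 factors were centred just upstream. The median centre lay 68 bp before the start for RUNX1-only sites (1681 site and start pairs) and 51 bp before it for CHD7-only sites (1136 pairs). RUNX1-only sites sat closer together, with 75.4% of their centres within 200 bp of the start against 46.0% for CHD7-only sites. CHD7-only centres lay downstream of the start in 38.5% of cases, and RUNX1-only centres in 25.5%. CHD7 peaks were also wider, and the part of width in this was not tested.

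The highest-ranked sites of the 2 factors lay in different places. Of the 100 RUNX1 sites of highest mean rank, 2 of the 80 with a known place were at a gene start. Of the 100 highest CHD7 sites, 81 of 83 were at a gene start. Over the top 500 the shares were 5.49% for RUNX1 and 92.9% for CHD7. Rank was part of neither class rule, but it comes from the same 4 lists and is described here with no test. RUNX1 sites, and CHD7 sites likewise, were split into 5 rank bins of equal size. From the lowest to the highest RUNX1 bin, the gene-start share went from 47.1% through 38.7%, 33.3% and 26.4% to 12.4%. For CHD7 it was between 22.7% and 23.3% in the 4 lower bins and 49.4% in the highest. The highest RUNX1 sites thus lay mostly away from gene starts. For CHD7 the gene-start share was largest in the highest bin, which held 834 of the 2376 CHD7 sites at a gene start. Without RUNX1 replicate 1, 2 of 76 of the 100 highest RUNX1 sites with a known place were at a gene start, and the share went from 45.9% in the lowest bin to 9.77% in the highest.

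Over whole lists, the share of peaks at a gene start was 36.8% and 28.5% in the RUNX1 libraries and 21.9% and 24.8% in the CHD7 libraries. Both RUNX1 values were above both CHD7 values. With 2 libraries against 2, an exact permutation test (two-sided) can give no p below 0.333, and gave p = 0.333 (adjusted p = 0.4, Benjamini-Hochberg over 6 tests of this kind). In the 12 libraries that the classes did not use, the share was 35.4% ± 7.23 (SD, n = 6) for RUNX1 and 18.3% ± 4.15 (SD, n = 6) for CHD7. All 6 RUNX1 values, from 27.5 to 46.6%, lay above all 6 CHD7 values, from 14.1 to 24.7%. The exact permutation p was 0.00216 (adjusted p = 0.013), the smallest that this design allows. In these libraries too, every RUNX1 list ended at 1e-09 or 1e-07 and every CHD7 list at 0.01. Antibody and threshold therefore cannot be told apart in this test. With only scores of 9 or more in every Control -Dox list, the RUNX1 minus CHD7 difference was -36.1 points. The order turned in the top 25% of peaks of each Control -Dox list, with 24.0% and 11.4% for RUNX1 and 33.9% and 35.2% for CHD7. In the other libraries the values for the top 25% overlapped, at 24.8% ± 13.9 (SD, n = 6) for RUNX1 and 29.1% ± 6.06 (SD, n = 6) for CHD7, with exact permutation p = 0.517. The RUNX1 libraries of CM +Dox stood highest there, at 48.5% and 32.2%.

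The share of sites that were shared changed with rank. The share of RUNX1 sites that were shared was 41.1% in the lowest bin of RUNX1 rank, 32.9%, 34.2% and 40.3% in the next bins and 56.0% in the highest. Of the 100 highest RUNX1 sites, 81 were shared (Wilson 95% interval 72.2 to 87.5%). The share of CHD7 sites that were shared was 27.7%, 36.9%, 42.8%, 55.7% and 61.3% from the lowest to the highest bin of CHD7 rank. For CHD7 the path depended on place. Away from gene starts it climbed from 23.6% to 69.2%, while at gene starts it reached 61.7% in bin 4 and stood at 54.2% in the highest, bin 5. Without RUNX1 replicate 1, sharing was 37.2%, 30.9%, 32.0%, 37.9% and 53.7% over the RUNX1 bins, and rose from 32.1% to 66.1% over the CHD7 bins.

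**Figure D2:**
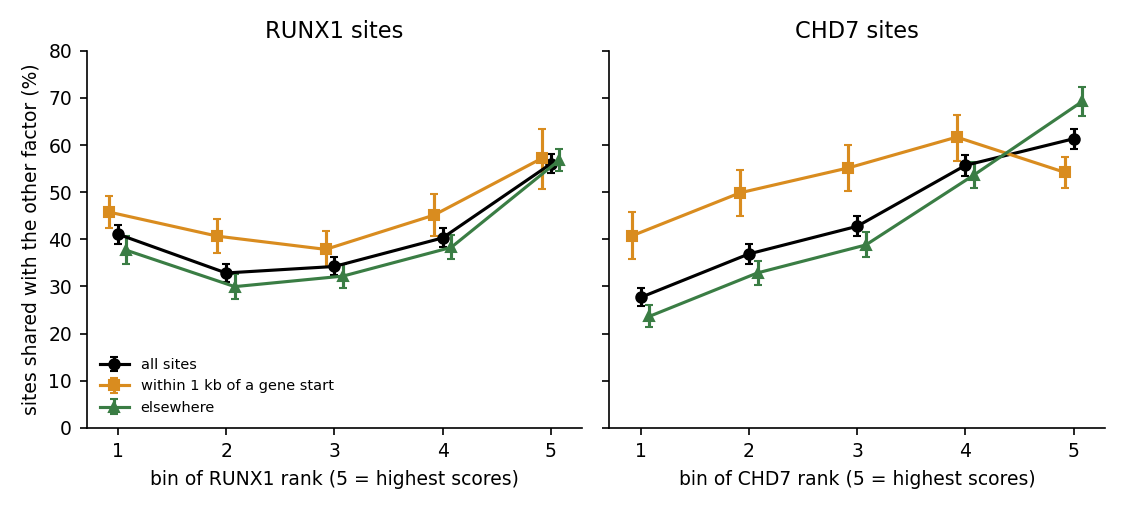
Percent of reproducible RUNX1 sites (left) and CHD7 sites (right) shared with the other factor, by bin of their own rank (5 bins of equal size, 5 the highest), for all sites, sites within 1 kb of a gene start and sites elsewhere. Error bars are Wilson 95% intervals. RUNX1 sharing is lowest in bin 2 at 32.9%, and CHD7 sharing away from gene starts reaches 69.2%.

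Within each library, peaks at shared sites ranked higher than peaks at single-factor sites. In RUNX1 replicate 1 the median percentile was 63.2 at shared and 55.7 at RUNX1-only sites, and in replicate 2 it was 63.6 and 54.1. In CHD7 replicate 1 it was 72.2 at shared and 61.3 at CHD7-only sites, and in replicate 2 it was 78.7 and 56.6. At gene starts the RUNX1 libraries parted: the shared minus RUNX1-only difference was -4.13 percentile points in replicate 1 and 4.35 in replicate 2. Elsewhere it was 13.5 and 12.7 points. When all 4 lists were limited to a score of 9 or more, the mean difference for RUNX1 over the 2 libraries was -8.16 points, the opposite direction.

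Shared sites were wider for both factors. RUNX1 peaks had a median width of 373 and 377 bp at shared sites and of 309 and 313 bp at RUNX1-only sites in replicates 1 and 2. CHD7 peaks had a median width of 489 and 573 bp at shared sites and of 381 and 397 bp at CHD7-only sites. The difference was found in each of the 5 rank bins in all 4 libraries, from 32 to 62 bp for RUNX1 and from 39 to 253 bp for CHD7. A wider interval is also more likely to overlap another one, so width and sharing are tied by the class rule. In the 4475 shared sites made of 1 RUNX1 and 1 CHD7 site, the 2 centres lay a median of 100 bp apart (interquartile range 43 to 197 bp). The RUNX1 interval was wholly inside the CHD7 interval in 56.2% of them, and the reverse held in 4.38%.

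The letters of the RUNX motif were found at RUNX1-bound promoters more often than at CHD7-only promoters. Over the RefSeq promoter windows of coding genes (300 bases, from 250 before to 50 after the start), a RUNX1-only site overlapped 1829 of 21263 (8.6%), a shared site 1528 (7.19%) and a CHD7-only site 962 (4.52%). TGTGGT or TGCGGT, on either strand, was held by 28.0% of the RUNX1-only promoters (Wilson 95% interval 26.0 to 30.2%), by 27.6% of the shared promoters (25.4 to 29.8%) and by 16.2% of the CHD7-only promoters (14.0 to 18.7%). Over all 21263 windows the share was 21.6%. A window under several classes was counted as shared first and as RUNX1-only next. Base composition differs between these sets and its part in the shares was not tested, at a mean GC content of 63.7%, 60.4%, 58.6% and 56.2% in the same order. Among promoters with a CpG observed over expected ratio of 0.6 or more, the shares were 26.6%, 26.7% and 15.9%, against 16.9% for promoters with no site and 19.6% for all promoters of that kind. The shares over all promoters were 28.3%, 27.9% and 14.9% without RUNX1 replicate 1.

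Motifs of 2 other promoter-binding families were spread differently. CCGGAA, a motif read by ETS factors such as FLI1, was held by 35.6% of RUNX1-only, 43.7% of shared and 42.1% of CHD7-only promoters. Of all promoters, 18.7% held it. Among the promoters with a CpG ratio of 0.6 or more it was held by 37.2%, 47.3% and 47.0%, against 30.8% of all of that kind. GGGCGG, read by SP and KLF factors, was held by 79.0%, 63.9% and 52.5%, against 46.2% of all. AGATAA, read by GATA factors, was held by 4.21%, 6.02% and 8.52%, against 9.65% of all. Each motif was searched on both strands, and CCGGAA and GGGCGG can share bases with neighbouring matches. A match describes the letters in the window and is no evidence of a factor there. Motifs at sites away from promoters were not analysed here.

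CHD7-only sites lay closest together. Another site of the same class lay within 10 kb of 22.4% of RUNX1-only, 19.7% of shared and 26.7% of CHD7-only sites. Away from gene starts the shares were 18.95%, 18.01% and 23.4%. A reproducible RUNX1 site lay within 10 kb of 34.3% of CHD7-only sites, and a reproducible CHD7 site within 10 kb of 23.2% of RUNX1-only sites. The order depended on the setting. With the same number of peaks kept in every list, CHD7-only sites stood at 18.3% and RUNX1-only sites at 24.4%, and without CHD7 replicate 1 shared sites (25.6%) stood above RUNX1-only sites (15.3%).

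Joining all sites with gaps of up to 10 kb gave 135 runs of 5 or more sites and 24 runs of 8 or more. The runs of 8 or more held 2.51% of all CHD7-only sites, 1.48% of shared sites and 0.515% of RUNX1-only sites. These were 2.90%, 1.64% and 0.681% without RUNX1 replicate 1. The longest run had 21 sites in 81.1 kb of chromosome 13 (chr13:23517321-23598434), 13 CHD7-only and 8 shared, with 0 RUNX1-only sites. The coding genes nearest to its sites are 13 histone genes, among them H1f3, H2ac8, H3c4 and H4c8, which encode the linker and core histones made during DNA replication. A second histone run on that chromosome (chr13:23732342-23764703) had 14 sites in 32.4 kb, 10 of them CHD7-only, 3 shared and 1 RUNX1-only. Histone genes are near-identical copies, and how reads that match several copies were treated is not given in the sources used here, so single sites there are uncertain.

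The second and the third longest runs had Mbnl1, which encodes a regulator of alternative splicing, as the nearest coding gene. The second (chr3:60495151-60545939) lay inside the gene and held 16 sites in 50.8 kb, 11 CHD7-only and 5 shared. The third (chr3:60371110-60425675) lay outside it and held 14 sites in 54.6 kb, 12 CHD7-only and 2 shared. Neither held a RUNX1-only site. A run of 12 sites lay at Chd2, a gene of the same remodeller family as Chd7, with 8 CHD7-only and 4 shared sites.

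**Figure D3:**
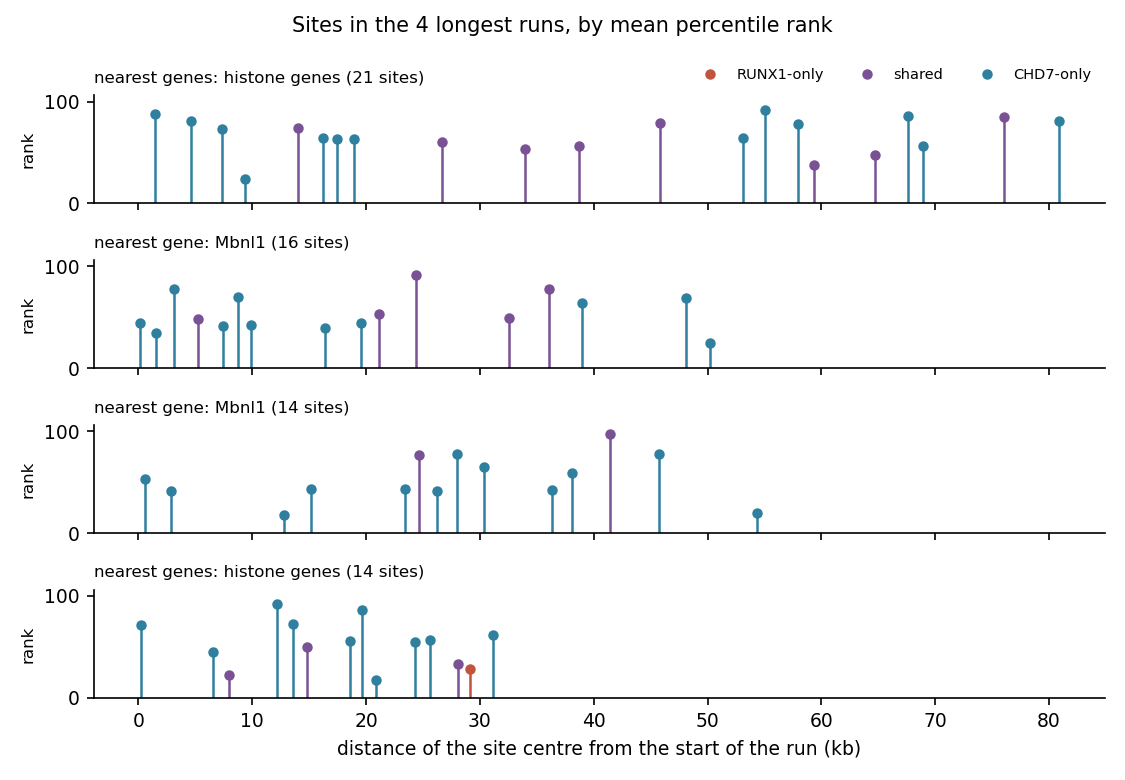
Sites of the 4 longest runs in the Control -Dox cells, each drawn at the distance of its centre from the start of the run (horizontal axis, kb) with a height equal to its mean percentile rank in the lists that define it. The 2 histone runs (21 and 14 sites) and the runs in and near Mbnl1 (16 and 14 sites) are mostly CHD7-only and shared, with 1 RUNX1-only site in the second histone run.

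The classes also differed between chromosomes. Per 100 coding genes there were 31.1 RUNX1-only, 21.0 shared and 26.0 CHD7-only sites over all chromosomes. The X chromosome had 10.2, 4.97 and 8.70, the lowest of the chromosomes apart from Y. The X chromosome values were 13.7, 6.31 and 7.35 without RUNX1 replicate 1. The share of RUNX1 sites that were shared ranged from 32.8% on chromosome 8 to 49.2% on chromosome 3.

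Among the 10 highest-ranked sites of each class, CHD7-only sites differed in place from RUNX1-only and shared sites. The leading RUNX1-only sites lay in or near Dmwd, Ppcdc, Itgb3, Filip1, Epn2, Haao, Zfp532, Lig1, Egflam and Zfp521. None of the 7 with a known place was at a gene start, and CHD7 replicate 2 had a peak at 8 of the 10, against 0 for CHD7 replicate 1. In the 6 other CHD7 libraries they were called in between 1 and 6. The site in Itgb3 (chr11:104611556-104612067), which encodes the platelet integrin beta chain, stood at percentile 99.8 and 99.9 of the RUNX1 lists and 92.1 of CHD7 replicate 2. It thus counted as RUNX1-only through the absence of a peak in 1 CHD7 list. The site in Filip1 had no CHD7 peak in either Control -Dox library, but was called in 5 of the 6 other CHD7 libraries. It stood at percentile 99.8 and 99.6 of the RUNX1 lists.

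The leading shared sites lay in or near Reep3, Pde3b, Cited2, Klra17, Rgs18, Ahi1, Mbnl1, Mtap and Olfm3, among others. None of the 6 with a known place was at a gene start, and 7 of the 10 lay outside genes. The site 238 kb from Cited2 (chr10:17484235-17486502), a transcriptional co-regulator needed in blood stem cells, stood at percentile 99.99 and 99.97 of the RUNX1 lists and 96.5 and 95.9 of the CHD7 lists. It was 2268 bp wide and was called in all 12 libraries outside Control -Dox. The site of highest rank in both RUNX1 lists lay 13.9 kb from Olfm3 and was called in 5 of 6 other RUNX1 and 4 of 6 other CHD7 libraries.

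The leading CHD7-only sites lay at Diaph1, Mettl18, Ddx18, Snrpd1, Mipep, Psmd1, Srrm3, Tomm22 and Rint1, among others. Of the 7 with a known place, 6 were at a gene start. All 10 were called in all 6 other CHD7 libraries, and 5 of them in none of the 6 other RUNX1 libraries. The Ddx18 promoter site stood at percentile 99.9 and 99.9 of the CHD7 lists, with no RUNX1 peak in either Control -Dox library. Several of these genes are housekeeping genes: Snrpd1 encodes a core spliceosome protein and Mipep a mitochondrial peptidase.

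In the libraries that the classes did not use, shared sites were called more often than single-factor sites of the same antibody. A site counted as called when any peak overlapped it, and a wider site is more likely to be overlapped. Median site widths were 412 bp at shared and 340 bp at RUNX1-only sites for RUNX1. For CHD7 they were 703 bp at shared and 525 bp at CHD7-only sites. The part of width in these differences was not tested. RUNX1 peaks were found at 92.7%, 92.2%, 89.7%, 93.8%, 60.9% and 68.5% of shared sites in Control +Dox, CM -Dox and CM +Dox replicates 1 and 2. At RUNX1-only sites the shares were 87.5%, 88.3%, 83.4%, 88.9%, 43.9% and 53.1%. Shared sites were higher in 6 of 6 libraries, and the CM +Dox libraries were lowest for both classes and furthest apart. The mean difference was 8.77 percentage points ± 5.84 (SD, n = 6). An exact sign-flip permutation test (two-sided) gave p = 0.03125, the smallest p it allows. Its adjusted p was 0.0625 over the 6 tests, which misses 0.05. Those 6 include gene-start tests of 2 libraries against 2, which could give no p below 0.333. The adjusted p therefore depends on which tests were counted together. Without the 2 CM +Dox libraries the mean difference was 5.05 points.

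CHD7 peaks were found at 86.5%, 87.0%, 82.7%, 91.9%, 71.8% and 82.7% of shared sites in the libraries in the same order. At CHD7-only sites the shares were 68.4%, 70.0%, 68.9%, 82.6%, 69.1% and 80.7%. Shared sites were again higher in 6 of 6 libraries, but here the CM +Dox libraries were closest together, at 2.70 and 1.99 points apart. The mean difference was 10.5 points ± 7.02 (SD, n = 6), with exact sign-flip permutation p = 0.03125 and adjusted p = 0.0625, and 14.5 points without CM +Dox. Whether the classes differed in their response to the fusion was not tested.

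Rank moved with these differences. From the lowest to the highest bin of CHD7 rank the mean difference was 6.92, 8.30, 6.42, 2.49 and 0.704 points. Shared sites were higher in 4, 5, 4, 4 and 5 of the 6 libraries. In the highest bin 96.4% of shared and 95.7% of CHD7-only sites were called. With scores at or above each list's median it was 2.56 points, with exact sign-flip permutation p = 0.406. Within bins of RUNX1 rank the mean difference stayed between 4.98 and 10.05 points. Shared sites were higher in 6 of 6 libraries in the 4 lower bins and in 4 of 6 in the highest. Width was not matched within the rank bins.

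**Figure D4:**
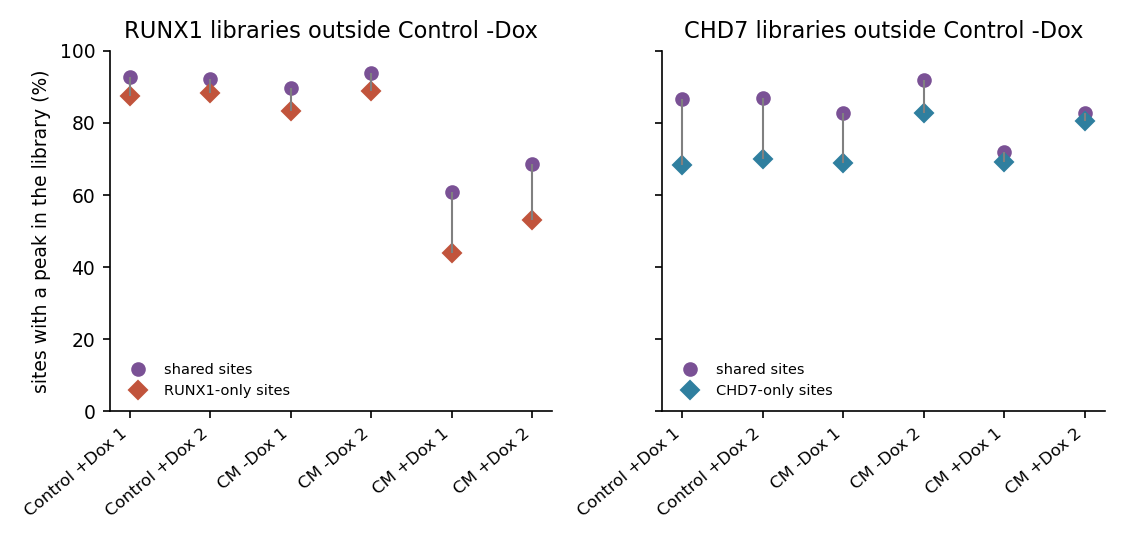
Percent of Control -Dox sites (vertical axis) with a peak in each of the 6 RUNX1 libraries (left) and 6 CHD7 libraries (right) outside Control -Dox, for shared and single-factor sites, with a line joining the 2 values of a library. Shared sites are above in all 12 libraries, by 15.4 and 17.0 points in the RUNX1 CM +Dox libraries and by 1.99 and 2.70 points in the CHD7 CM +Dox libraries.

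Class membership was partly stable in Control +Dox cells, which lack the fusion. Of the shared sites, 68.8% were again called in both replicates of both factors, and 19.1% in both replicates of RUNX1 but not of CHD7. Of the RUNX1-only sites, 68.4% were again RUNX1-only and 11.1% became shared. Of the CHD7-only sites, 49.6% were again CHD7-only and 45.6% were called in both replicates of neither factor. When RUNX1 replicate 1 was left out, 62.9% of shared, 57.7% of RUNX1-only and 49.2% of CHD7-only sites kept their class. In CM -Dox cells without doxycycline the corresponding shares that kept their class were 73.4%, 63.6% and 57.0%.

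Most genes with a site had a site of 1 class. Of 21887 protein-coding genes, 4706 (21.5%) had a RUNX1-only site in the gene body or within 5 kb, 3346 (15.3%) a shared site and 3654 (16.7%) a CHD7-only site, and 8699 (39.7%) a site of any class. RUNX1-only sites alone marked 2879 genes, CHD7-only sites alone 1744 and shared sites alone 1514, while 445 genes had all 3. Genes with all 3 classes were long, at a median of 93.2 kb, against 12.3 kb for genes with none, so counts per gene move with gene length. Within 5 kb of a gene start, 2466 of 17492 genes with a known start (14.1%) had a RUNX1-only site, 1836 (10.5%) a shared site and 1966 (11.2%) a CHD7-only site. Lists of genes are set beside these shares of all genes below. They were not matched for length, and no test was made of them.

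Sites per gene were counted in the gene body and 5 kb around it. Gse1, a chromatin-associated protein gene, had 9 RUNX1-only sites, 1 shared and 1 CHD7-only site, and Abhd2, a lipase gene, had 6 RUNX1-only sites and none of the other classes. Fyb, an adapter protein of platelets and T cells, had 8 shared, 6 CHD7-only and 1 RUNX1-only sites. Angpt1, the ligand of the TIE2 receptor, had 6 shared and 7 CHD7-only sites with 0 RUNX1-only sites. Mbnl1 had 20 CHD7-only and 7 shared sites. Mef2c, a transcription factor of myeloid and lymphoid cells, had 8 CHD7-only sites beside 1 shared and 1 RUNX1-only site.

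Transcription factor genes of blood stem and progenitor cells were marked more often by RUNX1-only sites than by either other class. Of 24 such genes, 18 (75%) had a RUNX1-only site, 8 a shared site and 9 a CHD7-only site. The shares of all genes were 21.5%, 15.3% and 16.7%. Without RUNX1 replicate 1 the counts of this list were 18, 10 and 9, while 24.4%, 16.4% and 15.7% of all genes had such a site. Zfpm1, a cofactor of GATA proteins, had 5 RUNX1-only sites and no other, the highest at percentile 98.8 and 98.9 of the RUNX1 lists. Nfe2, a regulator of megakaryocytes, had 4 RUNX1-only sites, and CHD7 replicate 2 had a peak at 1 of them. Lyl1 had 2 RUNX1-only, 1 shared and 1 CHD7-only site, and Meis1 had 3, 2 and 1. The CHD7-only site counted for Lyl1 (chr8:84706978-84708029) lay outside Lyl1, within 5 kb of it and inside another gene. Gata2 had 1 shared site inside the gene (chr6:88203016-88203396), at percentile 43.6 and 67.9 for RUNX1 and 79.7 and 82.3 for CHD7. Tal1 and Kit, the receptor of stem cell factor, each had 1 RUNX1-only site. Spi1, which encodes PU.1, and Myb each had 1 RUNX1-only and 1 CHD7-only site.

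Runx1 itself was marked more heavily than the gene of its partner Cbfb. It had 4 RUNX1-only, 4 shared and 1 CHD7-only sites. The 4 shared sites included one over the distal start of the gene (chr16:92825668-92826571), at percentile 98.6 and 97.6 of the RUNX1 lists and 75.3 and 37.0 of the CHD7 lists. Another shared site, 24.8 kb inside the gene (chr16:92800488-92801980), was higher for RUNX1, at 99.3 and 99.5, and uneven for CHD7, at 19.9 and 88.7. Runx2 had 2 RUNX1-only, 3 shared and 3 CHD7-only sites, and Runx3 had the 1 RUNX1-only promoter site printed above. Cbfb, which encodes the partner subunit, had 1 CHD7-only site near its 3′ end and no RUNX1 peak in either library. The Chd7 gene had 2 RUNX1-only sites and 1 CHD7-only site inside the gene, and no shared site.

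Cell cycle and growth genes leaned to RUNX1-only sites as well, with 14 of 20 (70.0%) against 5 with a shared site and 7 with a CHD7-only site. Over all genes 21.5%, 15.3% and 16.7% had a RUNX1-only, shared and CHD7-only site. RUNX1-only was thus the commonest class over all genes too. Ccnd3, the D-type cyclin of many blood cells, had 6 RUNX1-only sites and 1 CHD7-only site. Its highest RUNX1-only site stood at percentile 93.6 and 92.1. Chromatin remodeller genes were marked by all classes, with 9, 7 and 6 of 15, and Chd2 had 1 RUNX1-only, 3 shared and 4 CHD7-only sites. Cytokine receptor and signalling genes were marked by shared and CHD7-only sites in 10 of 20 each, and by RUNX1-only sites in 7. Without RUNX1 replicate 1 RUNX1-only sites marked 10 of them and shared sites 11. Dusp6, a phosphatase that limits ERK signalling, had 2 shared sites and 1 CHD7-only site. Ptprc, which encodes CD45, had 1 shared and 5 CHD7-only sites.

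Genes of mature lineages were counted in the same way. The shares over all genes were 21.5% for RUNX1-only, 15.3% for shared and 16.7% for CHD7-only sites. Of 20 megakaryocyte and mast cell genes, 8 (40%) had a shared site, 5 a RUNX1-only site and 4 a CHD7-only site. Selp, which encodes P-selectin, had 3 shared sites, one of them at percentile 99.5 and 99.5 of the RUNX1 lists and 16.9 and 64.8 of the CHD7 lists. Of 25 myeloid differentiation genes, 6 (24.0%) had a RUNX1-only site, near the 21.5% of all genes, and 2 each a shared or a CHD7-only site. When RUNX1 replicate 1 was left out, 8 of the 25 had a RUNX1-only site. Prtn3, a neutrophil protease gene, had 1 RUNX1-only site at percentile 93.2 and 92.6. Of 11 erythroid genes, 3 (27.3%) had a RUNX1-only site and 3 a CHD7-only site. Of 16 lymphoid genes, 2 (12.5%), 1 (6.25%) and 2 had a RUNX1-only, shared and CHD7-only site. So few genes cannot be told from the shares of all genes, and the counts were 2, 2 and 1 without RUNX1 replicate 1. Among 16 neural crest genes, Sema3a had 1 shared and 1 CHD7-only site, and Snai2 had 1 CHD7-only site. None of 12 liver genes had a site.

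Most ribosome and proteasome genes had a site: 24 of 27 and 18 of 22, against 39.7% of all genes. By class, the shares of all genes were 21.5% for RUNX1-only, 15.3% for shared and 16.7% for CHD7-only sites. Of the 27 cytosolic ribosomal protein genes, 15 (55.6%) had a shared site, 10 a RUNX1-only and 5 a CHD7-only site. The shared site at Rpl18 stood at percentile 90.8 and 84.3 of the RUNX1 lists and 99.9 and 99.8 of the CHD7 lists. Rpl11 had a CHD7-only site at 97.0 and 98.1 with no RUNX1 peak. Of the 22 proteasome subunit genes, 10 (45.5%) had a CHD7-only, 8 a shared and 7 a RUNX1-only site. The CHD7-only site at the Psmd1 promoter printed above stood at 99.8 and 99.9 of the CHD7 lists, with a peak at percentile 8.78 of RUNX1 replicate 1 and none in replicate 2.

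**Figure D5:**
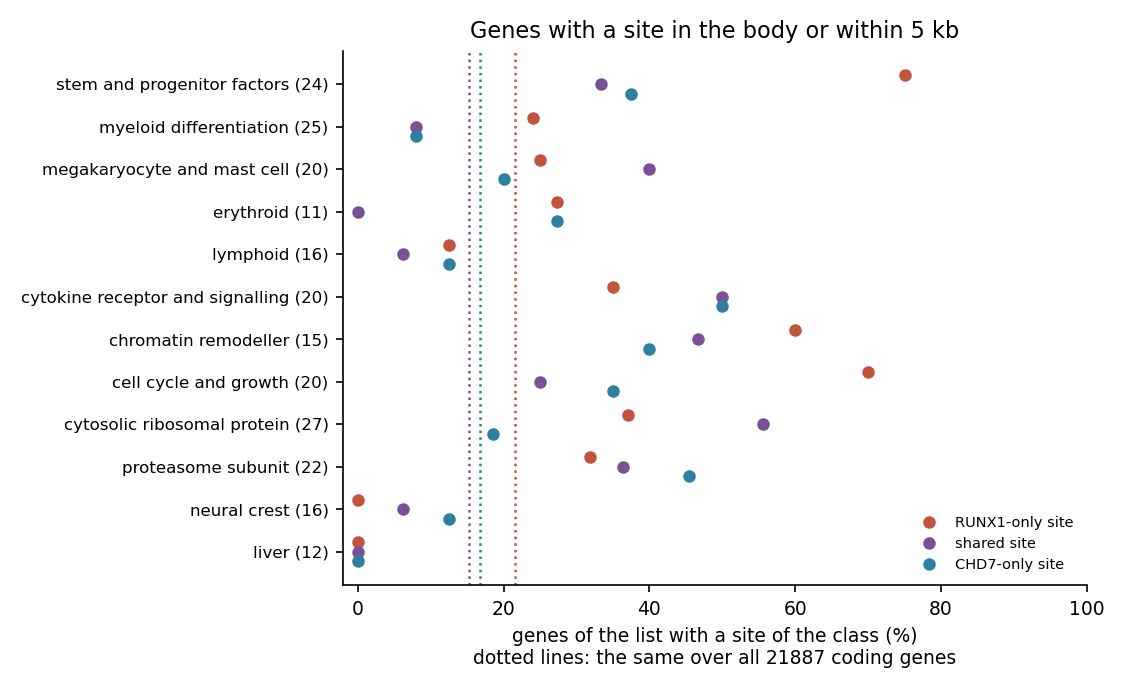
Percent of the genes of 12 lists (number of genes in brackets) with a RUNX1-only, shared or CHD7-only site in the body or within 5 kb. Dotted lines give the same over all 21887 coding genes: 21.5%, 15.3% and 16.7%. RUNX1-only sites reach 75% of stem and progenitor factor genes and shared sites 55.6% of ribosomal protein genes.

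Peak lists hold no expression values, so the identity of the cells could be looked at only through places of binding. Of the genes taken as marks of cell type, the granulocyte and monocyte genes were mixed: Mpo, Ctsg and Cebpa, had no peak in any of the 4 lists, while Prtn3 and Csf1r had 1 RUNX1-only site each. Elane had no site and a peak at percentile 93.8 of CHD7 replicate 2. Of the erythroid genes, Gata1 had no peak, and Klf1 and Epor had 1 RUNX1-only site each. The site counted for Epor (chr9:21955533-21956320) lay outside Epor, within 5 kb of it, and 173 bp from a gene start outside Epor. The B cell genes Pax5 and Ebf1, the T cell genes Cd3e, Bcl11b and Tcf7 and the liver genes Alb, Ttr and Apoa1 also had none. The progenitor genes Kit, Gata2, Tal1, Myb, Meis1 and Erg all had at least 1 site, that of Tal1 at percentile 7.12 and 22.3 of the RUNX1 lists. So did the megakaryocyte and mast cell genes Itga2b, Pf4, Cpa3 and Gp9. Of all coding genes, 39.7% had a site.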

How the data were processed

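ChIP-seq peak lists of the 4 Control -Dox libraries defined the classes, and 12 lists of the other conditions were used for tests. The build mm10 and the programs MACS2 2.0.10 and Bowtie2 2.0.6 are named, per the submitters' processing notes. Which background library was used, how reads were filtered and how deep each library was read is not given in the sources used here. Each library has its own list. Column 5, as the authors deposited it, is read as the −log10 of the peak's p-value, because no list has a score below the cut-off that its peak names carry.

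Chromosomes 1 to 19, X and Y were kept. Peaks of the replicates of a factor that overlapped by at least 1 bp were joined, as were RUNX1 and CHD7 sites. Gene positions and promoters came from RefSeq tables of GRCm38.p6: 17492 of 21887 coding genes had a start there, none of them on chromosome 18, and exons, introns and UTRs were not used. Of 229 genes in 12 lists, 228 matched. Tests used 1 value per library, with two-sided exact permutations and Benjamini-Hochberg adjustment over 6 tests. Nothing says that replicates were separate cultures, so p-values measure only the spread between libraries, which may be technical. Class and permutation code was tested on simulated data.

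The class rule, the gene lists and the tests were chosen with earlier results of these data known. Named are the 10 sites per class of highest mean rank, the 8 genes per class with most sites (a selection is printed), the 5 longest runs, up to 4 genes per list by mean rank of their best site, and Runx1, Runx2, Runx3, Cbfb, Chd7, Spi1, Gata2, Tal1, Myb, Kit, Cebpa and Mpo. Windows over another annotated gene were left out of the printed promoters after the data were seen. The run at Chd2, beyond the 5 longest, was also named then. Some named items are not reported here. Alternatives were a score filter, equal list lengths, other overlap rules, wider distances, leaving out each library, and a common score of 9. When a library was left out, all peaks of the other replicate were taken as sites. Python 3.11.15, pandas 2.3.3, numpy 2.4.6 and matplotlib 3.10.9 were used.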

Additional observations from a re-analysis of the deposited data

Results flagged for a closer look

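Peaks on the mitochondrial chromosome were left out of all comparisons. The RUNX1 lists of Control -Dox held 6 and 6 of them and the CHD7 lists 5 and 6. They were singled out because they are signal in a part of the lists that no comparison used, and no control library was analysed here to set them against.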

How the results depend on the processing

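Of 222 values under other settings, 108 held, 105 moved, 6 fell short of 0.05 and 3 turned direction; the cause was not tested. A count held when it stayed within 1.5 times its first value, and a share when it stayed within its counting interval. A rank or width difference held within 1 SD between replicates, and a test on its side of 0.05 (unadjusted). These rules fixed some labels in advance. The RUNX1 width difference had an SD of 0 between replicates, so any other value counted as moved. The gene-start test of the Control -Dox lists could not reach 0.05, so it held unless its direction turned. Triplets below are RUNX1-only, shared and CHD7-only, and pairs are RUNX1 and CHD7.

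With scores at or above each list's median, class counts were 3967, 1590 and 3555, shared shares 28.9% and 30.9%, gene-start shares 20.5%, 21.9% and 36.9%, shares with a neighbour of the class 16.4%, 8.30% and 17.7%, and genes with a site 2707, 1134 and 2874. Shared minus single-factor differences were 13.8 and 8.32 in rank, 67.5 bp in RUNX1 width and 2.56 points in later CHD7 calls. The gene-start difference between RUNX1 and CHD7 lists turned to -1.65 points.

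With a score of 9 or more in every list, which leaves few CHD7 sites, class counts were 10898, 438 and 415, shared shares 3.93% and 51.3%, gene-start shares 29.0%, 76.8% and 85.1%, shares with a neighbour 33.0%, 3.65% and 0%, and genes with a shared or CHD7-only site 586 and 561. Rank differences were -8.16 (turned) and 4.79, the RUNX1 width difference 29.8 bp, later-call differences 3.79 and 0.552 points, and the gene-start difference between lists turned to -36.1 points.

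With equal list lengths, CHD7-only sites numbered 3519, shared shares were 31.7% and 50.3%, the CHD7-only gene-start share 26.9%, shares with a neighbour 24.4%, 16.7% and 18.3%, the RUNX1 width difference 65 bp and the later CHD7 difference 6.82 points. Asking for overlap over 0.5 of the shorter interval, 37.4% of RUNX1 sites were shared, the shared and CHD7-only gene-start shares were 31.8% and 26.5%, 25.5% of CHD7-only sites had a neighbour and the RUNX1 width difference was 60.5 bp. Within 500 bp, shared shares were 44.1% and 46.9%, the RUNX1-only and CHD7-only gene-start shares 29.1% and 22.5%, shares with a neighbour 20.3%, 18.5% and 23.0% and the RUNX1 width difference 63.5 bp. Merged over 8 lists, they were 43.1% and 46.0%, with 24.5% of CHD7-only sites with a neighbour and 62.5 bp.

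Within 5 kb of a gene start, the shares were 41.4%, 42.3% and 40.8%, and with either gene end over all sites 28.8%, 30.6% and 23.3%. With gaps of 50 kb, shares with a neighbour were 56.3%, 49.5% and 56.9%. Genes with a site within 5 kb of the start numbered 2466, 1836 and 1966. Later-call differences without CM +Dox were 5.05 and 14.5 points (exact permutation p = 0.125 in both, the smallest for 4 libraries).

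Leaving out each library in turn gave class counts of 4792 to 8760, 5065 to 6639 and 5177 to 14717, shared shares of 37.5 to 58.4% and 29.1 to 49.9%, and gene-start shares of 26.6 to 37.3%, 31.7 to 36.2% and 17.7 to 24.98%. Shares with a neighbour were 15.3 to 27.7%, 20.8 to 25.6% and 24.9 to 47.9%, and genes with a site 3577 to 6097, 3586 to 4561 and 3271 to 6770. Rank differences were 8.24 to 11.3 and 19.3 to 28.8, width differences 58.5 to 66 bp and 142 to 166 bp, and later-call differences 8.09 to 11.8 and 11.1 to 30.0 points. With a library left out, every peak of the other replicate counted as a site, so the rule of both replicates no longer applied to that factor. CHD7 sites then numbered 21486 without CHD7 replicate 1 and 17857 without CHD7 replicate 2, instead of 10331. The highest CHD7-only counts came from these settings, at 14717 and 12669. The gene-start difference between lists was 5.13 to 13.5 points.

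Replicate numbers are shared by the RUNX1 and CHD7 libraries, but no label ties them. Rank differences between replicates 1 and 2 of the 2 factors had a correlation of 0.0086 over 4604 shared sites. With the replicate number as a replicate block, the gene-start difference was 9.31 points (14.9 and 3.70 within the pairs, exact permutation p = 0.5, the smallest for 2 pairs).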
